A study of Mus musculus with 10 samples.

Results

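The mitochondrial carriers of the Slc25 family were taken as all probes whose gene symbol on the platform is Slc25a followed by a number, which gave 43 probes of 42 genes among the 16383 genes of the table. Family members without such a probe were not analysed here. The samples were livers of 6 male mice labelled Tgfbr-/+, heterozygous for a knockout of Tgfbr2 (1 of the receptors through which TGF-beta signals), and of 4 wild-type littermates of unstated sex, all on a chow diet. Age, strain and the structure of the mutant allele are not given in the sources used here. Each liver RNA was hybridised on a 2-colour array against 1 reference mixed from the livers of 6 wild-type mice, called the pool here, and every value below is a log2 ratio over that pool, so levels cannot be compared between genes. The direction, liver over pool, is likely from the order of the titles but not stated, and if it ran the other way all signs below would change.

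Slc25 proteins sit mostly in the inner mitochondrial membrane, where each moves a particular metabolite between cytosol and matrix, commonly in exchange for another. They supply ADP and phosphate to ATP synthase, pass reducing equivalents inward through the malate-aspartate shuttle and bring acylcarnitines in for oxidation. In hepatocytes they also let citrate out for lipid synthesis and tie the mitochondrial and cytosolic steps of the urea cycle together.

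The deposited columns had log10 medians of 0.0013 to 0.0047. Tgfbr2 averaged over its 2 probes differed, heterozygous minus wild type, by -0.47 ± 0.12 (SE; exact two-sided permutation p = 0.0143, limma adjusted p = 0.516), and on probe 10024401828 the library labelled Tgfbr2+/- replicate 4, at 0.20, lay inside the wild-type range of -0.29 to 0.64. That probe alone differed by -0.88 ± 0.26 (SE; limma unadjusted p = 0.00547, exact permutation p = 0.0286). The other, 10024408236, differed by -0.070 ± 0.086 (SE; limma unadjusted p = 0.433, exact permutation p = 0.457), and there Tgfbr2+/- replicates 3 and 6, at 0.28 and 0.24, exceeded the wild-type maximum of 0.23. Neither probe's position relative to the mutation is known here. Wild-type replicate 1 and Tgfbr2+/- replicate 5 correlated at -0.32 over all probes, which alone does not settle the direction of either column. For Tgfbr2 averaged over its probes they stood, as deposited, at 0.23 and -0.49. Their groups' means, which include them, were 0.15 and -0.32. The mean of the Kupffer cell markers listed below was -0.26 to -0.14 in wild-type and -0.05 to 0.36 in heterozygous livers. The marker lists were chosen with earlier results of these data known. Neither the direction of the 2 columns nor the cause of their correlation was tested. For the carriers with an unadjusted p under 0.05, and for some others, results with either column turned in sign are given. Of 8 measured hepatocyte markers, 6 had positive and 2 negative differences, and their mean ratio was -0.16 to 0.07 in wild type and -0.15 to 0.06 in heterozygous liver. Ratios to a liver pool carry no level, so the tissue label could not be checked by expression.

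None of the 42 carriers differed between the groups at a limma adjusted p of 0.05, which 0% of all genes reached, and 5 of 42 (11.9%) had an unadjusted p under 0.05, where 5.54% of all genes did. Slc25a18, Slc25a1 and Slc25a24 were the 3 with higher values in heterozygous liver, against 2.97% of all genes, and Slc25a46 and Slc25a44 the 2 with lower values, against 2.57%. Differences ran from -0.26 for Slc25a22 to 0.20 for Slc25a18, and 27 of 42 lay within 0.1 of 0. Positive differences were found for 20 carriers (47.6%, against 52.6% of all genes) and negative ones for 22. The median difference was -0.0066 for the carriers and 0.0044 for all genes, and the median size of a difference was 0.070 and 0.051. The lowest adjusted p of a carrier was 0.716. The count of 5 was 3 without wild-type replicate 1, wild-type replicate 2 or Tgfbr2+/- replicate 6 (3.55%, 5.4% and 7.21% of all genes). It was 4 when the wild-type replicate 1 column was turned in sign (3.56%), and 1 (Slc25a46) when the Tgfbr2+/- replicate 5 column was (3.11%).

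**Figure D1:**
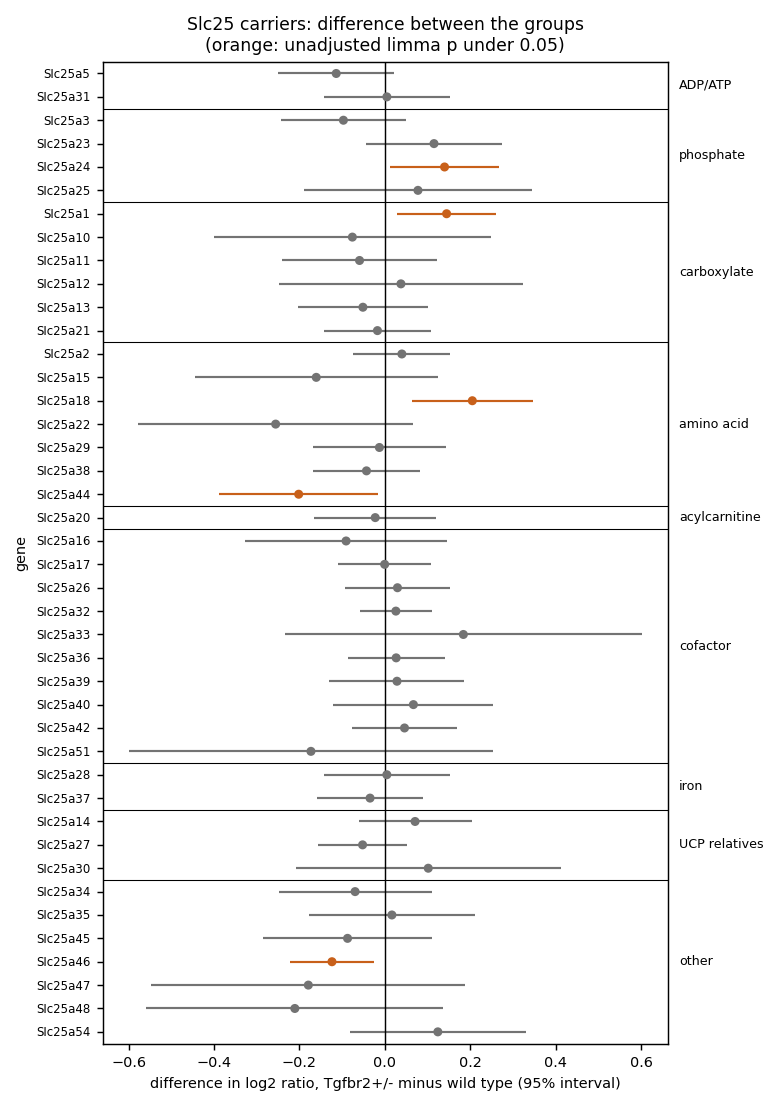
Difference in log2 ratio, Tgfbr2+/- minus wild type, for each of the 42 carriers grouped by role, as a point with its 95% interval from limma (n = 6 and 4 livers). The intervals of 5 carriers, in orange, leave out 0 before adjustment, and 37 of 42 intervals lie wholly within 0.5 of 0.

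**Figure D2:**
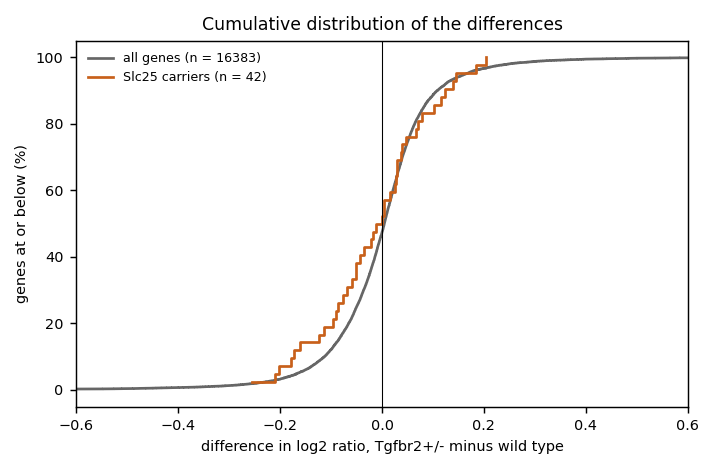
Cumulative percentage of genes (y axis) at or below a given difference in log2 ratio (x axis), for the 42 carriers and for all 16383 genes. Both curves cross 0 near their middle, with 47.6% of carriers and 52.6% of all genes above 0.

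The SE of a carrier's difference ran from 0.039 for Slc25a32 to 0.19 for Slc25a51, with a median of 0.070 against 0.067 over all genes, and the median interval reached 0.15 to either side. For 37 of the 42 carriers the 95% interval lay within 0.5 of 0. The other 5 were Slc25a22, Slc25a33, Slc25a47, Slc25a48 and Slc25a51, whose outer bounds lay between -0.60 and 0.60.

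Slc25a18, a mitochondrial glutamate carrier, had the smallest p of the family. Its wild-type ratios were -0.13, -0.09, -0.10 and -0.30 in replicates 1 to 4, and the heterozygous ratios ran from -0.10 through a median of 0.07 to 0.16. All 4 wild-type livers lay below the pool and 4 of 6 heterozygous livers above it, and Tgfbr2+/- replicate 4, the lowest, overlapped the wild-type range. The group means were -0.16 ± 0.10 (SD, n = 4) and 0.049 ± 0.10 (SD, n = 6), a difference of 0.20 ± 0.065 (SE), or 1.15-fold (limma unadjusted p = 0.00892, adjusted p = 0.716; exact permutation p = 0.0143). With 1 liver left out, it was largest without the library labelled Tgfbr2+/- replicate 4, at 0.23 (limma unadjusted p = 0.0036). It was smallest without wild-type replicate 4, at 0.16 (limma unadjusted p = 0.0353). With wild-type replicate 1 turned in sign it was 0.14 (limma unadjusted p = 0.110) and with Tgfbr2+/- replicate 5 turned 0.15 (limma unadjusted p = 0.0501).

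Slc25a46, an outer-membrane member of the family with a part in mitochondrial shape, was the 1 carrier of 42 (2.38%) whose groups did not overlap, where 1.08% of all genes did not (0.354% lower, 0.726% higher). Its wild-type ratios were 0.20, 0.06, 0.06 and 0.05, and the heterozygous ratios ran from -0.11 through -0.02 to 0.02. Every wild-type liver was above the pool and 5 of 6 heterozygous livers were below it, with wild-type replicate 1 apart from the other 3. The difference was -0.12 ± 0.045 (SE), or 1.09-fold lower (limma unadjusted p = 0.0182, adjusted p = 0.797; exact permutation p = 0.00476, the smallest that 210 splits can give). It was -0.089 (limma unadjusted p = 0.0717) without wild-type replicate 1 and -0.025 (limma unadjusted p = 0.665) with that column turned in sign. With Tgfbr2+/- replicate 5 turned instead, the limma unadjusted p of Slc25a46 stayed under 0.05.

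Slc25a1, the citrate carrier that exports the acetyl units used in fatty acid and sterol synthesis, stood at -0.21, 0.02, -0.10 and -0.08 in wild type. The heterozygous ratios ran from -0.01 through 0.05 to 0.12, and 3 of 6 lay above the highest wild-type liver, replicate 2. The difference was 0.14 ± 0.053 (SE), or 1.10-fold (limma unadjusted p = 0.0195, adjusted p = 0.797; exact permutation p = 0.0238). It was 0.10 (limma unadjusted p = 0.0754) without wild-type replicate 1, 0.037 (limma unadjusted p = 0.574) with that column turned and 0.11 (limma unadjusted p = 0.0986) with Tgfbr2+/- replicate 5 turned.

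Slc25a24, which exchanges ATP-Mg for phosphate under the control of calcium, stood at -0.06, -0.19, -0.07 and -0.05 in wild type, and from -0.06 through 0.05 to 0.18 in heterozygous liver. Of the 6 heterozygous livers 5 lay above all wild-type livers, among which replicate 2 was the lowest. The difference was 0.14 ± 0.058 (SE; limma unadjusted p = 0.0356, adjusted p = 0.857; exact permutation p = 0.0429). Without wild-type replicate 2 it was 0.11 (limma unadjusted p = 0.113), and turning wild-type replicate 1 or Tgfbr2+/- replicate 5 gave 0.11 (limma unadjusted p = 0.123) or 0.10 (limma unadjusted p = 0.138).

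Slc25a44, a carrier of branched-chain amino acids, stood at -0.03, 0.20, 0.06 and -0.21 in wild type and from -0.33 through -0.21 to -0.01 in heterozygous liver. All 6 heterozygous livers were below the pool, 3 of them below every wild-type liver, and wild-type replicate 4 lay among them. The difference was -0.20 ± 0.085 (SE), or 1.15-fold lower (limma unadjusted p = 0.0364, adjusted p = 0.857; exact permutation p = 0.0667). It was -0.27 (limma unadjusted p = 0.0062) without wild-type replicate 4, -0.14 (limma unadjusted p = 0.131) without wild-type replicate 2, and -0.16 (limma unadjusted p = 0.147) with Tgfbr2+/- replicate 5 turned. Turning wild-type replicate 1 gave -0.21 (limma unadjusted p = 0.0273).

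**Figure D3:**
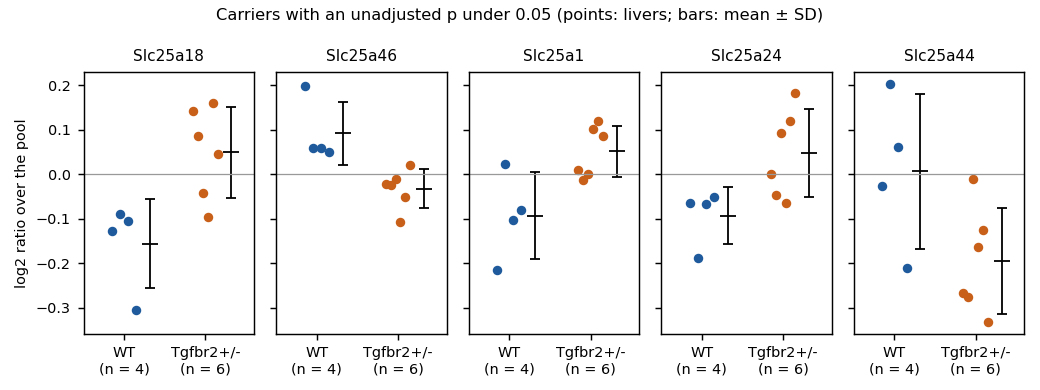
Log2 ratio over the wild-type pool (y axis) of the 5 carriers with an unadjusted p under 0.05, with a point for each liver (4 wild type, 6 Tgfbr2+/-) and the mean ± SD beside each group. The groups are apart only for Slc25a46, and no adjusted p of the 5 was under 0.05.

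Markers of macrophages moved with the groups. Of 10 measured Kupffer cell markers, 9 were higher in heterozygous liver. Of these, 8 had an unadjusted p under 0.05 (adjusted p from 0.115 upward), where 2.97% of all genes were higher. Timd4 was higher at 0.21 (limma unadjusted p = 0.253) and Marco lower at -0.17 (limma unadjusted p = 0.658). The mean ratio of the 10 was -0.26 to -0.14 in wild type and -0.05 to 0.36 in heterozygous liver. Of 8 neutrophil markers 7 were higher, 3 of them with an unadjusted p under 0.05 (against 2.97% of all genes). The mean ratio of the 8 was -0.18 to 0.04 in wild type and 0.02 to 0.31 in heterozygous liver. The part of these cells in the carriers' values was not tested. In whole liver RNA, more cells of a type and more RNA per cell cannot be told apart.

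Of the 5 carriers with an unadjusted p under 0.05, Slc25a46 and Slc25a44 had no entry among the promoters used here. For the other 3, those with higher values in heterozygous liver, the 250 bases upstream of the annotated start are shown. These 3 carriers were picked by unadjusted p, and none passed after adjustment. The stretches are from RefSeq, build GRCm38.p6, written 5′ to 3′ on the gene's strand. They lie at chr6:120773518-120773767 (plus strand) for Slc25a18, chr16:17928220-17928469 (minus strand) for Slc25a1 and chr3:109122899-109123148 (plus strand) for Slc25a24. Capitals mark matches, on either strand, to the GC box GGGCGG, the CCAAT box CCAAT, the TATA box TATAAA and the sterol element letters TCACNCCAC.
Slc25a18: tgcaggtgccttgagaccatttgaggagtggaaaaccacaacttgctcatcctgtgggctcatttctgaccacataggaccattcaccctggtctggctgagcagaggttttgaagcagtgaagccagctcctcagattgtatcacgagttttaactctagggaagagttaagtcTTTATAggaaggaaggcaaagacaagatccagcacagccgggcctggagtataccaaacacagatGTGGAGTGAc
Slc25a1: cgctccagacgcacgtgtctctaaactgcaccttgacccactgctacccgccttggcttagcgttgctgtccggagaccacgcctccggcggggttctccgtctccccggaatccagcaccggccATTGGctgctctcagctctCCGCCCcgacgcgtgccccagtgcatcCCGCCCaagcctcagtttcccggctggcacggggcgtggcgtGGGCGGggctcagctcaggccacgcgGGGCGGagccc
Slc25a24: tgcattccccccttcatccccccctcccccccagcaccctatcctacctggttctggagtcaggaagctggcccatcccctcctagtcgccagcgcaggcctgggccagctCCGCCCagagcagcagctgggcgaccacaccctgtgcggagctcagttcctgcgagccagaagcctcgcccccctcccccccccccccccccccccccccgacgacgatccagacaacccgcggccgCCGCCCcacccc
The upstream stretch of Slc25a1 held 4 GC boxes and 1 CCAAT box at 70.0% G and C, and that of Slc25a24 held 2 GC boxes at 72.8%. That of Slc25a18, at 48.8%, held no GC box. On the opposite strand it had the letters of the TATA box 75 to 70 bases upstream and those of the sterol element 10 to 2 bases upstream.

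Across the family, 33 of the 42 genes matched 42 promoters in the same table. The GC box was in 30 of these 42 promoters (71.4%), against 32.7% of all 32851 promoters, and the CCAAT box in 19 (45.2%), against 33.8%. TATAAA was in 2 (4.76%, against 12.4%), the palindromic core of the NRF1 motif in 2 (4.76%, against 4.98%), TCACNCCAC in 1 (2.38%, against 1.05%) and the Smad palindrome GTCTAGAC in 0 (against 0.167%). Median G and C content was 57.0% for the carriers' promoters and 52.4% for all. Overlaps between matches of different strings were not checked, and several promoters belong to the same gene.

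The ADP/ATP carriers, which exchange matrix ATP for cytosolic ADP, had 2 measured members. Slc25a5, a form expressed in many tissues, stood at 0.08, 0.11, 0.10 and -0.11 in wild type and from -0.21 through -0.06 to 0.02 in heterozygous liver. Wild-type replicate 4 lay with the heterozygous livers, and the other 3 lay above all 6. The difference was -0.11 ± 0.062 (SE; limma unadjusted p = 0.0933, adjusted p = 0.917; exact permutation p = 0.105). It was -0.17 (limma unadjusted p = 0.0177) without wild-type replicate 4, and -0.075 and -0.072 with wild-type replicate 1 and Tgfbr2+/- replicate 5 turned in sign. Slc25a31, the form known from testis, differed by 0.0048 ± 0.067 (SE; limma unadjusted p = 0.944).

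Of the 4 measured phosphate and ATP-Mg/phosphate carriers, 3 had positive differences. Slc25a3, which brings phosphate and copper into the matrix, went the other way. It was read by 2 probes, which differed by -0.096 ± 0.064 and -0.098 ± 0.070 (SE; limma unadjusted p = 0.162 and 0.190), and no wild-type liver lay below the pool on their mean, which was 0.09, 0.13, 0.18 and 0.0033. The heterozygous livers ran from -0.18 to 0.14. With Tgfbr2+/- replicate 5 turned in sign the difference of the mean was -0.037 in place of -0.097, and with wild-type replicate 1 turned -0.050. Slc25a23, like Slc25a24 a calcium-regulated ATP-Mg carrier, differed by 0.12 ± 0.073 (SE; limma unadjusted p = 0.142), with Tgfbr2+/- replicate 5 at 0.29 and the other 5 heterozygous livers at -0.06 to 0.06. It was 0.065 without that liver, 0.018 with its column turned in sign and 0.053 with wild-type replicate 1 turned. Slc25a25, the third of that kind, ran from -0.46 in wild-type replicate 4 to 0.19 in wild-type replicate 2, and its heterozygous livers lay inside that range.

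Among the 6 carboxylate carriers, 2 had positive and 4 negative differences, and the median was -0.034. Apart from Slc25a1 none had an unadjusted p under 0.05. The liver aspartate-glutamate carrier Slc25a13, which feeds aspartate to the urea cycle and the malate-aspartate shuttle, differed by -0.051 ± 0.069 (SE; limma unadjusted p = 0.474), with a 95% interval from -0.20 to 0.10. Its relative Slc25a12 differed by 0.038, the oxoglutarate carrier Slc25a11 by -0.059, the dicarboxylate carrier Slc25a10 by -0.076 and the oxoadipate carrier Slc25a21 by -0.017. Of the shuttle's 4 enzymes, listed with them, 1 was lower at an unadjusted p under 0.05, against 2.57% of all genes. It was the cytosolic aspartate aminotransferase Got1 (-0.73 ± 0.26 SE, limma adjusted p = 0.797). Wild-type replicate 4 stood at -0.82 for Got1 and the heterozygous livers at -1.03 to -0.41, so the groups overlapped. The mitochondrial aminotransferase Got2 differed by -0.15 ± 0.074 (SE; limma unadjusted p = 0.0677).

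The amino acid carriers had 7 measured members, 2 with positive and 5 with negative differences. Slc25a22, the other glutamate carrier, had the lowest difference of the family, -0.26 ± 0.15 (SE; limma unadjusted p = 0.109, adjusted p = 0.917), on wild-type ratios of -0.23, 0.54, 0.17 and -0.04 and heterozygous ratios from -0.30 through -0.25 to 0.15. Of the 6 heterozygous livers, 4 lay at -0.30 to -0.20, as did wild-type replicate 1. The difference was -0.37 (limma unadjusted p = 0.0283) without that liver, -0.37 (limma unadjusted p = 0.0128) with its column turned in sign, and -0.11 (limma unadjusted p = 0.398) without wild-type replicate 2. Slc25a15, the ornithine carrier of the urea cycle, differed by -0.16 ± 0.13 (SE; limma unadjusted p = 0.241), and all 6 heterozygous livers, from -0.37 to 0.07, lay within the wild-type span of -0.37 to 0.37. The remaining 3, the ornithine carrier paralogue Slc25a2, the basic amino acid carrier Slc25a29 and the glycine carrier Slc25a38, differed by -0.043 to 0.040. Of the 5 urea cycle enzymes measured, 2 were lower at an unadjusted p under 0.05, against 2.57% of all genes. They were arginase Arg1 (-0.24 ± 0.10 SE) and argininosuccinate lyase Asl (-0.43 ± 0.19 SE), with limma adjusted p of 0.862 and 0.885.

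Slc25a20, which carries acylcarnitines into the matrix for beta-oxidation, differed by -0.022 ± 0.065 (SE; limma unadjusted p = 0.736), with an interval from -0.17 to 0.12. Its wild-type ratios were -0.07, 0.07, 0.05 and -0.13 and its heterozygous ones -0.19 to 0.12, so the groups covered much the same span. Of 11 measured genes of the carnitine shuttle and fatty acid oxidation, 7 had positive and 4 negative differences, with a median of 0.0066. The dehydrogenase Acadm was the 1 with an unadjusted p under 0.05 (-0.26 ± 0.11 SE, limma adjusted p = 0.850), where 2.57% of all genes were lower. Cpt2, which rebuilds acyl-CoA in the matrix, differed by -0.086 ± 0.049 (SE).

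The nucleotide, cofactor and glutathione carriers, 10 measured, had 7 positive and 3 negative differences, a median of 0.028 and no member with an unadjusted p under 0.05. Slc25a33, a pyrimidine nucleotide carrier, had the highest difference among them at 0.18 ± 0.19 (SE; limma unadjusted p = 0.354), and wild-type replicate 2, at -0.63, set its sign, since without that liver it was -0.0024. With Tgfbr2+/- replicate 5 turned in sign it was 0.012, and with wild-type replicate 1 turned 0.052. Slc25a51, the NAD+ carrier, had the lowest at -0.17 ± 0.19 (SE; limma unadjusted p = 0.392), and it was -0.028 when wild-type replicate 3 was left out, -0.32 when wild-type replicate 4 was and -0.072 when Tgfbr2+/- replicate 6 was. The other 8 differed by -0.091 to 0.067. They are Slc25a16 and Slc25a42, linked to coenzyme A, the peroxisomal Slc25a17, the S-adenosylmethionine carrier Slc25a26, the folate and FAD carrier Slc25a32, the pyrimidine nucleotide carrier Slc25a36, and the glutathione carriers Slc25a39 and Slc25a40. Slc25a39 lay below the pool in all 4 wild-type and 5 of 6 heterozygous livers, and Slc25a17 above it in all 4 and 5 of 6.

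Both mitochondrial iron importers differed by less than their SE. Slc25a37 (mitoferrin 1, the form of red cell precursors) differed by -0.035 ± 0.056 (SE) and Slc25a28 (mitoferrin 2, the form of other cells) by 0.0047 ± 0.067 (SE). None of 10 measured genes of mitochondrial iron and heme handling had an unadjusted p under 0.05, Cpox (-0.19 ± 0.13 SE) and Urod (0.075 ± 0.054 SE) having the smallest p. Of 7 erythroid markers 2 had positive and 5 negative differences. The 1 with an unadjusted p under 0.05, where 2.97% of all genes were higher, was Alas2, the heme synthesis enzyme of red cell precursors. It stood at -0.09, 0.02, 0.07 and 0 in wild type and 0.08 to 0.21 in heterozygous liver. Its groups did not overlap, as for 0.726% of all genes in that direction. The difference was 0.15 ± 0.046 (SE, limma unadjusted p = 0.00625, adjusted p = 0.683, exact permutation p = 0.00476).

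The relatives of the uncoupling proteins that bear Slc25a symbols are Slc25a14, Slc25a27 and Slc25a30. Slc25a14 differed by 0.071 ± 0.060 (SE; limma unadjusted p = 0.263) and Slc25a27 by -0.052 ± 0.047 (SE; limma unadjusted p = 0.295), which was -0.099 (limma unadjusted p = 0.0415) with wild-type replicate 1 turned in sign. Slc25a30 differed by 0.10 ± 0.14 (SE; limma unadjusted p = 0.486), with Tgfbr2+/- replicate 6 at 0.53 and replicates 2 and 1 at -0.25 and -0.21. Of the 4 measured proteins of the family with other symbols, 2 had positive and 2 negative differences, the outer-membrane insertase Mtch2 (0.096 ± 0.071 SE) and Ucp1 (-0.063 ± 0.072 SE) having the smallest p.

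The 7 carriers with another or no settled substrate had 2 positive and 5 negative differences, with a median of -0.087. Besides Slc25a46, Slc25a48 differed by -0.21 ± 0.16 (SE; limma unadjusted p = 0.210), and Slc25a54 by 0.12 ± 0.093 (SE; limma unadjusted p = 0.210). Without Tgfbr2+/- replicate 6 Slc25a48 was at -0.11. Slc25a54 was at 0.21 (limma unadjusted p = 0.0396) when wild-type replicate 3 was left out, 0.054 when wild-type replicate 4 was, 0.079 without Tgfbr2+/- replicate 5 and -0.0083 with that column turned in sign. Slc25a47, known for its expression in liver, stood below the pool in all 6 heterozygous livers (-0.43 to -0.08), while the wild-type livers ran from -0.58 to 0.40 and enclosed them. Slc25a34, Slc25a35 and Slc25a45 differed by -0.070, 0.017 and -0.087.

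**Figure D4:**
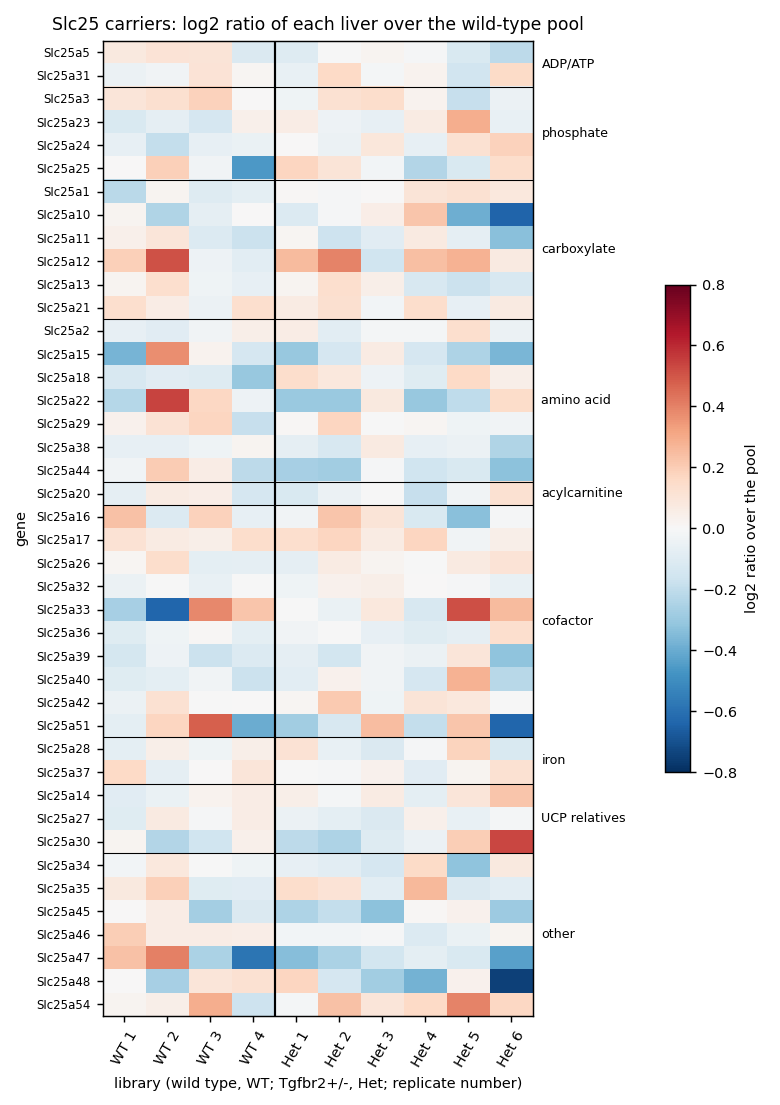
Log2 ratio over the wild-type pool (colour) of the 42 carriers (rows, grouped by role) in the 4 wild-type and 6 Tgfbr2+/- livers (columns). No role group is of 1 colour on either side of the line between the groups, and the deepest colours are single livers, such as Slc25a48 at -0.75 in Tgfbr2+/- replicate 6.

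The carriers varied unequally from liver to liver. The SD within groups had a median of 0.11 for the carriers and 0.11 for all genes, and 9 of 42 carriers (21.4%) were at or above the 90th percentile of all genes. In order of that SD they were Slc25a51 (0.35), Slc25a33 (0.34), Slc25a47 (0.30), Slc25a48 (0.28), Slc25a10 (0.26), Slc25a22 (0.26), Slc25a30 (0.25), Slc25a12 (0.23) and Slc25a15 (0.23). Slc25a32, at 0.037, had the smallest, at percentile 1.5 of all genes, and ran from -0.06 to 0.05 over all 10 livers.

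**Figure D5:**
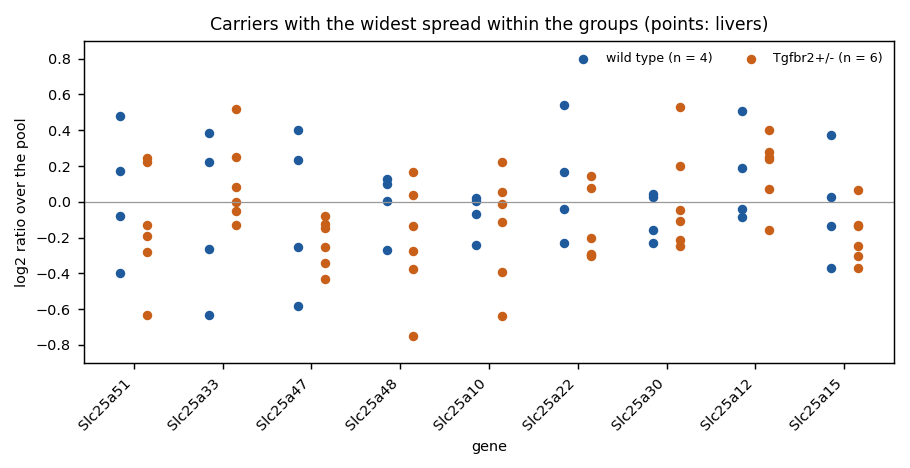
Log2 ratio over the wild-type pool (y axis) of the 9 carriers whose SD within groups was at or above the 90th percentile of all genes, with a point for each wild-type (n = 4) and Tgfbr2+/- (n = 6) liver. For each of the 9 the groups overlap, and single livers reach from -0.75 to 0.54.

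These wide swings fell on different livers for different carriers. Tgfbr2+/- replicate 6 was lowest of all 10 livers for Slc25a48 (-0.75), Slc25a10 (-0.64) and Slc25a51 (-0.63), and highest for Slc25a30 (0.53). Wild-type replicate 2 was highest for Slc25a22 (0.54), Slc25a12 (0.51), Slc25a47 (0.40) and Slc25a15 (0.37), and lowest for Slc25a33 (-0.63). Wild-type replicate 4 was lowest for Slc25a47 (-0.58) and Slc25a25 (-0.46). Over all genes, the SD of the ratios was 0.24 in Tgfbr2+/- replicate 6, 0.22 in replicate 5 and 0.13 to 0.20 in the other livers, and over the carriers 0.26, 0.19 and 0.11 to 0.21.

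The machinery that inserts carriers into the inner membrane was set beside them. Of 14 measured import genes 4 had positive and 10 negative differences (median -0.065). At an unadjusted p under 0.05, 2 were lower, against 2.57% of all genes. They were the small chaperone Timm10 (-0.24 ± 0.083 SE, limma adjusted p = 0.768) and the outer-membrane subunit Tomm5 (-0.31 ± 0.11 SE, limma adjusted p = 0.797). Of 15 other mitochondrial transporters 1 was lower at that p, the serine carrier Sfxn1 (-0.28 ± 0.12 SE, limma adjusted p = 0.890). Abcb10 differed by 0.15 ± 0.073 (SE). Of 6 genes for the cytosolic use of citrate, which Slc25a1 exports, 2 had positive and 4 negative differences. None had an unadjusted p under 0.05, Acaca (-0.32 ± 0.16 SE) and Fasn (-0.20 ± 0.21 SE) having the smallest p.

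Carriers were also set against a gene of their pathway over the 10 livers, for 5 pairs. Slc25a1 and the citrate-cleaving enzyme Acly gave Pearson's r = 0.53 (permutation p = 0.120, adjusted 0.30) and Spearman's rho = 0.62 (permutation p = 0.0607, adjusted 0.304), and r = 0.50 without the 2 livers farthest in Acly. Slc25a15 and ornithine transcarbamylase Otc gave r = -0.68 (permutation p = 0.0453, adjusted 0.226) and rho = -0.15 (permutation p = 0.690, adjusted 0.734), and r = 0.37 without the 2 livers farthest in Otc, so the value rests on those livers. For Slc25a13 with Ass1, Slc25a20 with Cpt1a and Slc25a37 with Alas2, r was 0.074, 0.21 and -0.40 (permutation p = 0.839, 0.572 and 0.249; adjusted 0.839, 0.715 and 0.415) and rho 0.13, 0.16 and -0.35 (permutation p = 0.734, 0.655 and 0.333; adjusted 0.734 for each). Without the 2 livers farthest in the partner, r was 0.045, 0.16 and 0.044. Within the 6 heterozygous livers r was 0.75 for Slc25a1 with Acly, -0.48 for Slc25a15 with Otc, -0.59 for Slc25a13 with Ass1, 0.20 for Slc25a20 with Cpt1a and 0.075 for Slc25a37 with Alas2. No pair passed after adjustment, and all ratios share the pool.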

How the data were processed

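The authors deposited 1 value per probe and liver, a log ratio of liver and pool. The authors' values were read as log10 ratios, because 8 of them lie at exactly 2 or -2, and were multiplied by 3.32 to give log2. Per the labels' protocols, RNA came from RNeasy columns and was labelled with Cy3 and Cy5 by an aminoallyl method. The design text mentions dye swaps, and the scanner, background correction and normalization are not given in the sources used here. Scale and direction are therefore inferred, while the medians show that the columns are centred. No value was missing.

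Of 23438 probes, 17726 carry 1 symbol, 50 several and 5662 are unnamed here. No symbol changed through Entrez identifiers in the RefSeq table. Probes of 1 symbol were averaged. Groups come from the titles. All genes were fitted with limma 3.58.1 in R 4.3.3 (two-sided, Benjamini-Hochberg over 16383 genes, threshold 0.05), with no further normalization. Single genes were also compared with exact two-sided permutation over 210 splits. P-values measure the spread between these livers, and the number of arrays limits their precision. Members and lists were chosen with earlier results of these data known. Named in full were Tgfbr2, the 2 carriers of smallest p per role group, the 6 of smallest p per direction, and the 2 genes of smallest p per pathway list. Other genes were chosen after their values were seen, as were the 5 carrier and partner pairs. The fit was tested on simulated data whose planted differences were all larger than any carrier's here, so that test does not bear on differences of this size. Of the marker lists, 0 of 7 brown adipocyte genes had positive differences, and 0 had a limma unadjusted p under 0.05 (lowest adjusted p 0.917). Of 8 skeletal muscle genes, 4 had positive differences and 1 was lower with a limma unadjusted p under 0.05 (against 2.57% of all genes). Alternatives left out each liver, turned a column's sign, or changed centring, weights, probes or the block.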

Additional observations from a re-analysis of the deposited data

Results flagged for a closer look

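In 86 groups of livers (42 carriers and Tgfbr2, in both genotypes), 5 held a liver far from the others, where chance gives about 1 in 20 groups, or 4.3. Slc25a46 was at 0.20 in wild-type replicate 1 and at 0.05 to 0.06 in the other 3 wild-type livers. Slc25a24 was at -0.19 in wild-type replicate 2, against -0.07 to -0.05. Slc25a5 was at -0.11 in wild-type replicate 4, against 0.08 to 0.11. Among heterozygous livers Slc25a23 was at 0.29 in replicate 5 and at -0.06 to 0.06 elsewhere. Slc25a29 was at 0.17 in replicate 2 and at -0.03 to 0.01 in the rest.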

How the results depend on the processing

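In all 18 alternatives 0 carriers passed the adjusted threshold. Leaving out 1 liver gave 3 to 7 carriers at an unadjusted p under 0.05, against 5 with all livers (5.54% of all genes). The 3 came without wild-type replicate 1, wild-type replicate 2 or Tgfbr2+/- replicate 6 (3.55%, 5.4% and 7.21% of all genes). The 7 came without wild-type replicate 4 (7.66%). Over the same fits the carriers' median difference was -0.023 to 0.0016. From 0 to 10 genes passed the adjusted threshold, the 10 being without Tgfbr2+/- replicate 3. The count of carriers at an unadjusted p under 0.05 was 1 with Tgfbr2+/- replicate 5 turned in sign (3.11% of all genes). It was 4 with wild-type replicate 1 turned (3.56%, with 1 of the 5 among them). Without both livers, an alternative chosen after the values were seen, it was 2 (3.64%). With the replicate number as a block it was 2 (9.27% of all genes, against 5.54% in the main fit). Same-numbered livers correlated at 0.020 to 0.30 in their deviations. Among Tgfbr2+/- replicates 1 to 4, wild-type replicates 2, 3 and 4 correlated best with their own number, and wild-type replicate 1 with replicate 4. The titles name no shared litter or batch, so whether the numbers mark pairs is not known, and the main fit took none.

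Of 360 values for 20 named carriers, 25 changed sign, and the cause was not tested. Under the replicate block Slc25a13 was at 0.0048 and Slc25a28 at -0.011. With wild-type replicate 1 turned, Slc25a28 was at -0.036, Slc25a31 at -0.018 and Slc25a37 at 0.044. With Tgfbr2+/- replicate 5 turned, Slc25a13 was at 0.0050, Slc25a28 at -0.055 and Slc25a54 at -0.0083. Slc25a31 was at -0.0082 with quantile normalization and -0.016 with array weights. Without both livers Slc25a28 was at -0.056 and Slc25a37 at 0.00051. Leaving out 1 liver moved Slc25a20 between -0.060 and 0.0069, Slc25a28 between -0.031 and 0.028, Slc25a31 between -0.023 and 0.039, Slc25a33 between -0.0024 and 0.34 and Slc25a37 between -0.073 and 0.0020. Signal over background is unknown, since ratios carry no intensities.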
